A study of Arabidopsis thaliana with 8 samples.

Results

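The change of the shade response with time was measured gene by gene, as the shade minus sun difference at 4 h less the shade minus sun difference at 1 h. Leaves and shoot apices of 2-week-old Arabidopsis thaliana plants of the Col ecotype were sequenced in 4 groups of 2 libraries: 4 h of simulated shade, 4 h of sun, 1 h of shade and 1 h of sun. All plants were wild type, each library came from a pool of 5 plants, and cotyledons, hypocotyls and roots had been taken off. Treatment began 4 h after dawn (ZT 4), so the 4 h libraries of both light conditions were collected later in the day than the 1 h libraries. Values are CPM, in which gene reads are divided by library size, and were analysed as log2(CPM + 1). Every gene with at least 1 CPM in 2 or more of the 8 libraries entered, which was 19280 of the 33602 genes listed. A positive difference means that shade relative to sun was higher at 4 h than at 1 h.

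Foliage absorbs red light and passes far-red light, so light under leaves is poor in red, and phytochrome photoreceptors there revert to their inactive form. Phytochrome-interacting factors (PIFs), which are bHLH transcription factors that bind the G-box and the related PBE-box, then accumulate and raise genes of auxin synthesis and of growth. Auxin in turn induces its own brakes, among them the Aux/IAA repressors and the GH3 enzymes that conjugate auxin to amino acids.

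Promoters of 4 of the genes named in the results are shown as the 250 bases before the annotated start, read from the RefSeq TAIR10.1 assembly. KAT1 and DOT1 passed the test of the difference, and IAA19 and IAA29 kept a large shade response at both times. The windows are chr5:18747407-18747656 on the minus strand for KAT1, chr2:15164963-15165212 on the plus strand for DOT1, chr3:5263751-5264000 on the plus strand for IAA19 and chr4:15583082-15583331 on the plus strand for IAA29. Capitals mark matches on either strand to the G-box CACGTG, the PBE-box CATGTG, the auxin response element TGTCTC or the evening element AAAATATCT, and no matches overlapped in these windows.
KAT1: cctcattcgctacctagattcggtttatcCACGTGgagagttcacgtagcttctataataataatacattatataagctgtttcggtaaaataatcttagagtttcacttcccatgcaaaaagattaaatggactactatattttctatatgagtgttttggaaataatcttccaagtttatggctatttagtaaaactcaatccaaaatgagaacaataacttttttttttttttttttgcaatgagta
DOT1: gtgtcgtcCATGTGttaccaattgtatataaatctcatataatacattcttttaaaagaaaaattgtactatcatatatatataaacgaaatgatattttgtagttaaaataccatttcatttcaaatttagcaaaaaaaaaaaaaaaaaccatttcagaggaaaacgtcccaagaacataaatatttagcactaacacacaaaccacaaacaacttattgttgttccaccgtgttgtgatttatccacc
IAA19: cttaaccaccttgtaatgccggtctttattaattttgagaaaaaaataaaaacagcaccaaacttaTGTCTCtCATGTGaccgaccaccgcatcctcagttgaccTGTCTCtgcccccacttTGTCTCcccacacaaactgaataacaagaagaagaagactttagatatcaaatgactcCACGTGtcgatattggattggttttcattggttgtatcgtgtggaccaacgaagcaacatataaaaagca
IAA29: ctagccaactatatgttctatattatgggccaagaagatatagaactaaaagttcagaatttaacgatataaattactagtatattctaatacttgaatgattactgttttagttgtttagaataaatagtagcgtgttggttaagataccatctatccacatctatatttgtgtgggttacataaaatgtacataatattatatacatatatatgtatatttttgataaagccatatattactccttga
The KAT1 window held 1 G-box, 221 bases before the start. The DOT1 window held 1 PBE-box. IAA19 had 1 G-box, 1 PBE-box and 3 auxin response elements, and the IAA29 window had no match to any of these letters. Windows of PRE1 and ATHB2, read in the same way and not shown, had no match either. Over the 19200 tested genes with a promoter sequence, 7.28% held a G-box, 11.0% a PBE-box, 10.8% an auxin response element and 2.53% an evening element. Among the 60 genes that were higher in shade by at least 1 on the log2 scale at both times, 8.33% held a G-box, 31.7% a PBE-box and 23.3% an auxin response element. Among the 121 genes that were higher in shade at 1 h and lost that response, the shares were 8.26%, 16.5% and 13.2%. Such a match describes the letters and is not a binding site.

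Reads on genes numbered 1154019 in shade 4 h replicate 1 and between 3449191 and 4680620 in the other 7 libraries. A gene at 10 CPM thus has a counting error of 29.3% in shade 4 h replicate 1, against 14.7% to 17.0% elsewhere. The shade 4 h replicates were also the least alike, with a Spearman correlation of 0.951 against 0.974 to 0.985 within the other groups, and 257 genes differed between them by at least 2 on the log2 scale, against 38 to 54 genes within the other groups. Leaf mesophyll markers summed to between 39958 and 49709 CPM, markers of the shoot apical meristem and boundary to at most 119.5 CPM, and root markers to at most 9.30 CPM. Tissue of this kind is bulk, so fewer cells of a type and less RNA per cell cannot be told apart. The p-values measure the spread between pools of plants.

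Few single genes passed the test of the difference. With limma and Benjamini-Hochberg adjustment over all 19280 genes, 2 genes passed at an adjusted p under 0.05 (0.0104% of genes tested). DOT1 was higher (0.00519%) and KAT1 lower (0.00519%). At an unadjusted p under 0.05 there were 1062 genes (5.51%), 399 with a positive difference (2.07%) and 663 with a negative one (3.44%). The median difference over all tested genes was -0.04. With 2 libraries a group, an exact permutation test of 1 gene within a time could not go below p = 0.333, so no such test is given. The shade response itself passed at an adjusted p under 0.05 for 23 genes at 4 h (0.119%) and 91 genes at 1 h (0.472%), of which 18 (0.0934%) and 87 (0.451%) were higher in shade, and 5 (0.0259%) and 4 (0.0207%) lower.

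KAT1 (AT5G46240, chr5:18743510-18747406), an inward potassium channel best known from guard cells, lost its response. It had 22.3 and 17.4 CPM in shade and 17.4 and 15.2 CPM in sun at 4 h. At 1 h it had 85.2 and 86.2 CPM in shade and 11.0 and 11.4 CPM in sun. The 1 h shade libraries stood far above the other 6, and at 4 h the lowest shade and the highest sun value were both 17.4 CPM. The shade response was 0.26 at 4 h and 2.83 at 1 h, and the difference was -2.57 (SE 0.29, adjusted p = 0.0111). Shade libraries fell by 2.07 between the times (adjusted p = 0.00011) while the sun libraries differed by 0.50. The 10 guard cell markers had a median difference of -0.36, or -0.45 without shade 4 h replicate 1, -0.01 without shade 4 h replicate 2 and -0.17 without sun 1 h replicate 2, and none of them passed. Summed, they stood at 3789 and 2451 CPM in shade and 2989 and 3090 CPM in sun at 4 h, and at 2197 and 1991 CPM in shade and 1823 and 1265 CPM in sun at 1 h. Most of each sum came from 1 gene, TGG1, a thioglucoside glucohydrolase. TGG1 had 3672 and 2374 CPM in shade and 2880 and 2978 CPM in sun at 4 h. At 1 h it had 2112 and 1902 CPM in shade and 1747 and 1193 CPM in sun. The part of these markers in the result was not tested. Other guard cell channels had differences of -0.04 for KAT2, 0.14 for GORK and -0.28 for SLAC1 (-0.85 and 0.30 without shade 4 h replicate 1 and replicate 2), and none of these passed.

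DOT1 (AT2G36120, chr2:15165213-15166536), which encodes a glycine-rich protein and is named for a leaf vein pattern mutant, reversed its response. At 4 h it had 20.6 and 23.8 CPM in shade and 9.48 and 8.31 CPM in sun. At 1 h it had 22.7 and 17.2 CPM in shade and 43.3 and 43.8 CPM in sun. Shade and sun libraries did not overlap at either time, and their order turned round. The response was 1.23 at 4 h and -1.10 at 1 h, with a difference of 2.33 (SE 0.31, adjusted p = 0.0386). The sun libraries carried the change, since they fell by 2.17 (adjusted p = 0.00016) while the shade libraries differed by 0.15. Of the 39 tested genes of glycine-rich proteins, 5 had a positive difference at an unadjusted p under 0.05, against 2.07% of all tested genes, and none a negative one, against 3.44%. Their median was 0.06, and between -0.02 without shade 1 h replicate 2 and 0.20 without sun 4 h replicate 1.

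Both calls come from groups of 2 libraries. Leaving out 1 library leaves a group with no spread of its own, so a lost call does not single out that library. Leaving out a shade 4 h library also takes the widest replicate spread out of the pooled error, so passing there is no check of a call. KAT1 and DOT1 passed without either shade 4 h library, and neither passed when any 1 of the other 6 libraries was left out, with adjusted p-values reaching 0.396 and 0.524. DOT1 was also lost with a replicate block (adjusted p = 0.0667) and with no filter on low values (adjusted p = 0.148). The differences themselves stayed between -2.74 and -2.40 for KAT1 and between 2.14 and 2.52 for DOT1.

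Among genes with a mean of at least 5 CPM, NIA1 and MAKR6 were next to the threshold. Lower genes stood as near, with an adjusted p of 0.0808 for AT2G01240, 0.0810 for AT1G18530 and 0.0904 for TET11 and TET16, and each was at the floor of 3 reads or fewer in shade at 4 h and sun at 1 h. NIA1, a nitrate reductase, had 53.1 and 53.5 CPM in shade and 27.6 and 27.1 CPM in sun at 4 h, against 21.8 and 23.6 CPM in shade and 37.1 and 62.8 CPM in sun at 1 h. Its order also turned round, with a response of 0.94 at 4 h and -1.06 at 1 h (adjusted p of the difference 0.0810). It was called by edgeR's quasi-likelihood test on reads recovered from the CPM, at an adjusted p of 0.0467, and by DESeq2 on these reads (adjusted p = 0.0016). The other nitrate reductase gene, NIA2, had a difference of 0.41, or 0.08 and 0.74 without shade 4 h replicate 1 and replicate 2. Over the 10 genes of nitrate and ammonium assimilation the median was 0.43, which was 0.13 without shade 4 h replicate 1, 0.26 without shade 1 h replicate 1 and 0.27 without sun 1 h replicate 1. Pairwise responses at 4 h lay above those at 1 h in 2 of these genes, against 7.72% of all tested genes, and below in none, against 10.8%.

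MAKR6, a membrane-associated kinase regulator, had 5.99 and 3.78 CPM in shade and 3.31 and 4.51 CPM in sun at 4 h, against 90.0 and 60.9 CPM in shade and 6.48 and 10.3 CPM in sun at 1 h. Only the 1 h shade libraries were high. The difference was -2.78 (SE 0.46, adjusted p = 0.0904). DESeq2 (adjusted p = 0.0072) and limma with a pseudocount of 5 (adjusted p = 0.048) called MAKR6, and edgeR did not (adjusted p = 0.0596). At 1 h alone the response of 3.03 passed (adjusted p = 0.000596), and at 4 h it was 0.25.

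**Figure D1:**
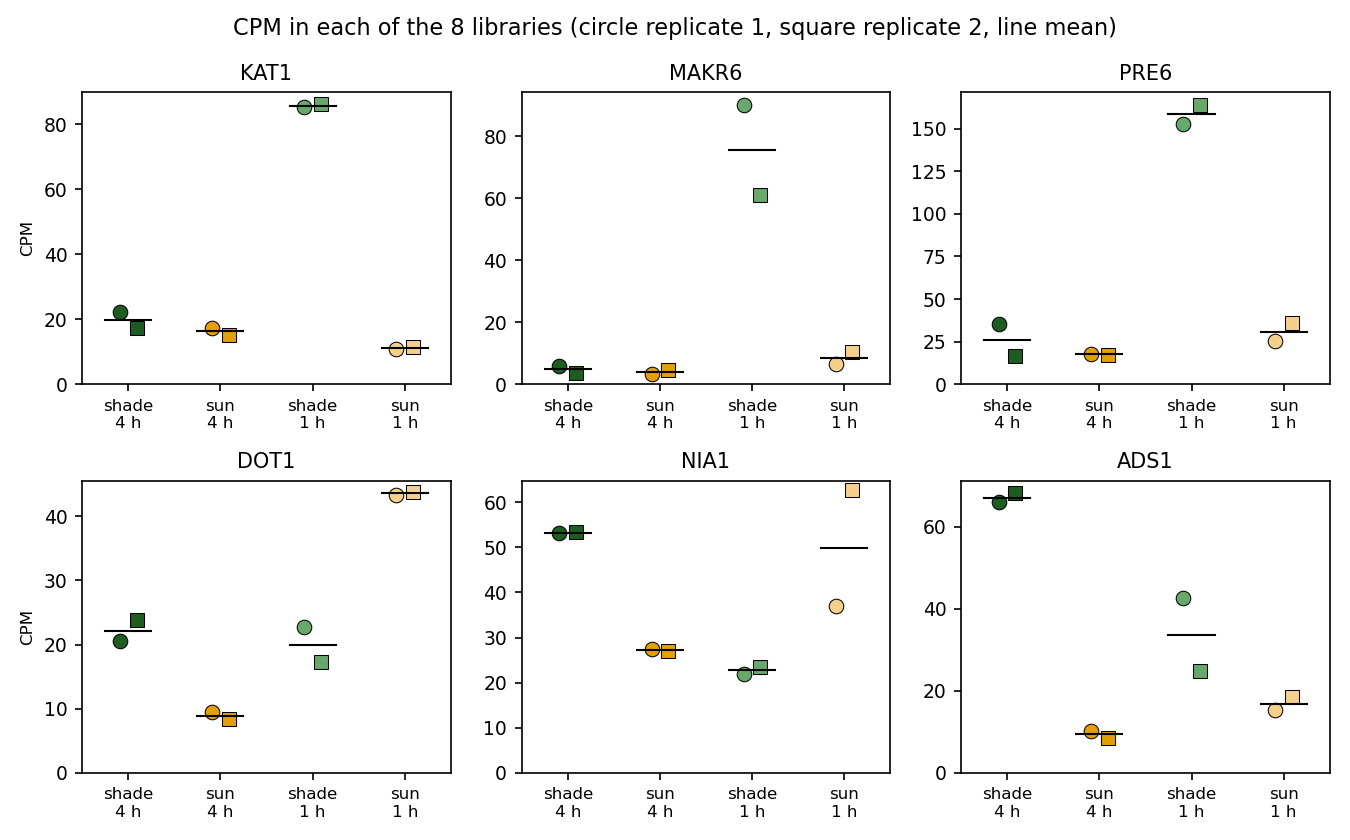
CPM (vertical axis, from 0) of 6 genes in the 8 libraries, with shade and sun at 4 h to the left of shade and sun at 1 h; circles are replicate 1, squares replicate 2 and lines the mean of 2. KAT1, MAKR6 and PRE6 are high only in shade at 1 h, whereas DOT1 and NIA1 change the order of shade and sun, and ADS1 is furthest apart at 4 h.

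Because so few genes passed singly, genes were also sorted by size alone. A gene gained a response when shade and sun libraries did not overlap at 4 h, differed by at least 1 on the log2 scale there and by under 0.5 at 1 h. A gene lost a response in the opposite case. A gene reversed when both responses were at least 0.5 in size, of opposite sign and without overlap, and kept a response when both were at least 1 in the same direction without overlap. These counts carry no test, and low genes fill much of them.

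A total of 148 genes gained a higher level in shade (0.768% of genes tested) and 192 a lower one (0.996%). Responses were lost by 121 genes that had been higher in shade (0.628%) and 59 that had been lower (0.306%). Reversal to a higher level in shade at 4 h was seen in 70 genes (0.363%) and reversal to a lower one in 104 (0.539%). The 60 genes that kept a higher level in shade (0.311%) stood against 7 that kept a lower one (0.0363%). Restricted to genes with a mean of at least 5 CPM, a limit added after the data were seen, the totals were 117 gained, 78 lost, 53 reversed and 37 kept.

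The larger part of the change lay in the shade libraries for 249 of the 340 gained genes (1.76% of genes tested), 107 of the 180 lost (0.934%), 101 of the 174 reversed (0.902%) and 52 of the 67 kept (0.348%). With a mean of at least 5 CPM, it lay in shade for 83 gained genes and in sun for 34, and for 47 and 31 lost genes. Reversed genes had 26 and 27, and kept genes 27 and 10. The share over all tested genes is not given here. Membership of the gained class changed more without the smaller shade 4 h library than without the other, and it was not followed for libraries of the other groups. Without shade 4 h replicate 1, 156 of the 340 gained genes stayed in their class, against 296 without replicate 2. For lost genes these numbers were 130 and 113, and for reversed genes 128 and 148.

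**Figure D2:**
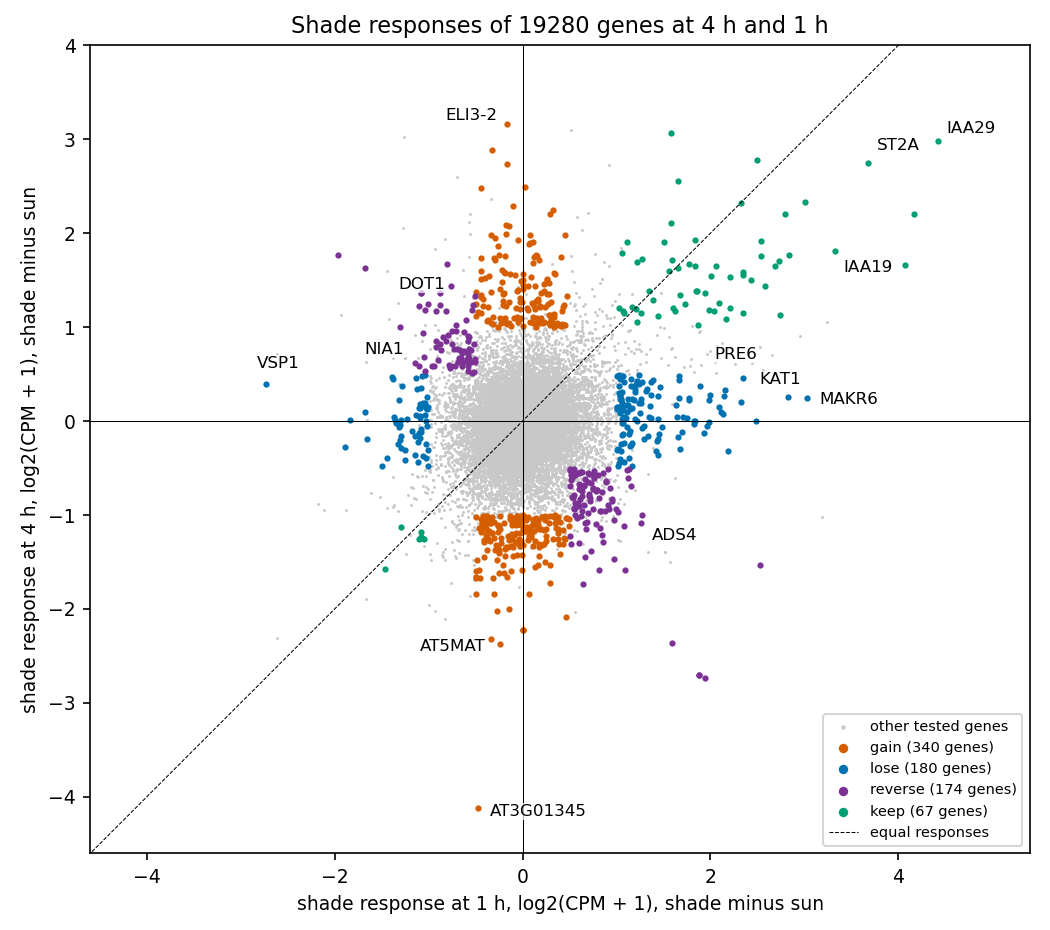
Shade response at 4 h (vertical) against that at 1 h (horizontal) for 19280 genes, as shade minus sun on the log2(CPM + 1) scale, coloured by class; the dashed line marks equal responses. KAT1, MAKR6 and PRE6 lie near 0 at 4 h and above 2 at 1 h, and the kept genes, IAA29 and IAA19 among them, lie at the upper right and, for the 7 that are lower in shade, at the lower left.

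The repressors of auxin signalling responded less to shade at 4 h than at 1 h as a list. Of the 24 Aux/IAA genes tested (29 listed), which encode short-lived repressors of auxin signalling, 18 had a negative and 6 a positive difference, against 54.0% and 46.0% over all tested genes. The median response was 0.21 at 4 h and 0.78 at 1 h, and the median difference was -0.48. None passed the test of the difference, 7 had a negative difference at an unadjusted p under 0.05, against 3.44% of all tested genes, and none a positive one. The 4 pairwise responses at 4 h lay below all 4 at 1 h in 10 members, against 10.8% of all tested genes, and above them in 1, against 7.72%. At an adjusted p under 0.05 the shade response passed in 3 members at 4 h (0.119% of all tested genes) and 7 at 1 h (0.472%).

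IAA3 had 35.1 and 27.0 CPM in shade and 18.5 and 27.1 CPM in sun at 4 h, against 75.7 and 90.2 CPM in shade and 27.9 and 23.2 CPM in sun at 1 h. Its groups overlapped at 4 h only, and its difference was -1.22 (adjusted p = 0.563). IAA5 was at 0 and 0.581 CPM in shade and 0.441 and 0.712 CPM in sun at 4 h, values of 3 reads or fewer, so its loss has no bounded fold. At 1 h it had 12.8 and 8.91 CPM in shade and 1.74 and 1.40 CPM in sun.

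IAA29 and IAA19 kept their response. IAA29 had 42.0 and 12.5 CPM in shade and 2.21 and 1.90 CPM in sun at 4 h, against 84.8 and 75.3 CPM in shade and 2.49 and 3.07 CPM in sun at 1 h. Shade was above sun in every library at both times, by 2.98 at 4 h (adjusted p = 0.0167) and 4.42 at 1 h (adjusted p = 0.000141). Its difference of -1.44 depended on the library, with -2.28 without shade 4 h replicate 1 and -0.61 without replicate 2.

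IAA19 had 20.6 and 11.6 CPM in shade and 4.41 and 3.09 CPM in sun at 4 h, against 88.9 and 56.9 CPM in shade and 7.97 and 4.74 CPM in sun at 1 h. The difference was -1.52 (adjusted p = 0.806), or -1.90 and -1.13 without shade 4 h replicate 1 and replicate 2. The response was 1.81 at 4 h, which did not pass (adjusted p = 0.0691), and 3.33 at 1 h (adjusted p = 0.000354). IAA2 behaved alike in direction, with responses of 1.59 at 4 h (adjusted p = 0.0159) and 2.34 at 1 h (adjusted p = 0.000141). IAA7 differed little between the times, with responses of 1.11 (adjusted p = 0.0230) and 0.97 (adjusted p = 0.0178).

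The SAUR genes, small auxin-induced growth genes, had a shift of the same direction over more members. Of 51 tested (78 listed), 38 had a negative difference, the median difference was -0.49, and the median response was 0.25 at 4 h and 0.68 at 1 h. Pairwise responses at 4 h lay below those at 1 h in 12 members and above in 1, against 10.8% and 7.72% of all tested genes. At an unadjusted p under 0.05 there were 8 members with a negative difference, against 3.44%, and none passed. No SAUR response passed at 4 h and 9 passed at 1 h, against 0.119% and 0.472% of all tested genes. Members of this family can share reads with close copies, and how such reads were assigned is not given in the sources used here.

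SAUR23 had 0.856 and 2.91 CPM in shade and 0.882 and 1.90 CPM in sun at 4 h, against 16.7 and 17.5 CPM in shade and 1.49 and 4.19 CPM in sun at 1 h. Its neighbour in name, SAUR20, kept its response, at 1.93 at 4 h and 1.84 at 1 h. AT1G29500 was among the lost genes, with a difference of -1.88 (adjusted p = 0.587).

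Genes that make, conjugate and move auxin had negative median differences too. The auxin synthesis list had a median response of -0.18 at 4 h and 0.07 at 1 h, with 7 negative and 3 positive differences. In it, YUC6 and TAA1 were lower in shade at 1 h, with responses of -1.50 and -0.84. Their differences were positive, 1.01 and 0.78. The median difference was -0.57 over 10 genes of auxin synthesis, -0.54 over 7 GH3 genes and -0.17 over 13 transport genes. For GH3 genes it was -0.81 without shade 4 h replicate 1, -0.17 without sun 4 h replicate 1 and -0.90 without sun 4 h replicate 2, and for transport genes -0.25 and -0.11 without shade 4 h replicate 1 and replicate 2. GH3.5, an auxin-conjugating enzyme, had 30.8 and 12.8 CPM in shade and 18.3 and 13.3 CPM in sun at 4 h, against 89.8 and 67.0 CPM in shade and 15.2 and 18.1 CPM in sun at 1 h. At 4 h its groups overlapped, and its difference was -1.82 (adjusted p = 0.527), or -2.43 and -1.22 without shade 4 h replicate 1 and replicate 2.

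PIN3, an auxin efflux carrier, had 115 and 91.8 CPM in shade and 80.9 and 95.4 CPM in sun at 4 h, against 169 and 262 CPM in shade and 56.3 and 65.9 CPM in sun at 1 h. The response was 0.22 at 4 h and 1.77 at 1 h (adjusted p = 0.00091), and the difference was -1.55 (adjusted p = 0.137). AUX1, an influx carrier, had responses of 0.48 and 1.01 and a difference of -0.53, which was -0.30 without shade 4 h replicate 2. YUC8, an enzyme of auxin synthesis, was listed at 0 in both sun libraries at 4 h and at 5.99 and 2.03 CPM in shade, with 15.1 and 11.5 CPM in shade and 0.747 and 1.40 CPM in sun at 1 h.

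Among the 16 shade transcription factors and their brakes the median response was 0.70 at 4 h and 0.92 at 1 h, and the median difference of -0.22 was -0.50 without shade 4 h replicate 1 and 0.01 without replicate 2. HAT2, a homeodomain-leucine zipper factor induced by auxin, was the member nearest to the threshold. It had 16.3 and 15.7 CPM in shade and 10.6 and 9.73 CPM in sun at 4 h, against 77.2 and 80.8 CPM in shade and 14.4 and 17.0 CPM in sun at 1 h. Shade was above sun at both times, and the difference was -1.65 (SE 0.29, adjusted p = 0.120).

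ATHB2, the related factor often used as a marker of shade, had 20.6 and 6.68 CPM in shade and 3.53 and 2.14 CPM in sun at 4 h, against 42.0 and 43.1 CPM in shade and 2.99 and 8.37 CPM in sun at 1 h. It kept its response, and its difference was -1.06 (SE 0.66, adjusted p = 0.911), or -1.80 and -0.32 without shade 4 h replicate 1 and replicate 2. PAR2, a brake on shade growth, had responses of -0.56 at 4 h and 1.34 at 1 h, with a difference of -1.90. PIL1, a PIF-like factor, kept its response, with 1.18 and 1.99.

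Small bHLH growth regulators and genes of brassinosteroid metabolism had a negative median difference as well. Over the 17 tested (20 listed) the median response was 0.28 at 4 h and 0.67 at 1 h and the median difference -0.41, with pairwise responses at 4 h below those at 1 h in 6 members and above in 2, against 10.8% and 7.72% of all tested genes. PRE6, a non-DNA-binding bHLH protein that releases growth factors from inhibition, had 35.1 and 16.9 CPM in shade and 17.9 and 17.1 CPM in sun at 4 h, against 152 and 164 CPM in shade and 25.4 and 36.0 CPM in sun at 1 h. The 1 h shade libraries stood apart from the other 6, and its difference was -1.89 (adjusted p = 0.278). PRE1, of the same family, had a difference of -1.71 (adjusted p = 0.806). BAS1, which inactivates brassinosteroids, had 1.71 and 6.98 CPM in shade and 4.41 and 3.80 CPM in sun at 4 h, against 25.1 and 19.5 CPM in shade and 3.98 and 6.42 CPM in sun at 1 h. Its replicates in shade at 4 h lay on either side of the sun libraries, and its difference was -2.06 (SE 0.63), or -1.28 and -2.84 without shade 4 h replicate 1 and replicate 2.

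Over 7 tested genes of ethylene synthesis of 11 listed, the median difference of 0.10 was -0.30 without shade 4 h replicate 1 and -0.76 without sun 1 h replicate 2. ACS8, a synthase of the ethylene precursor, was at or below 1 read in the sun libraries at both times and had 6.85 and 0.581 CPM in shade at 4 h against 17.7 and 14.1 CPM in shade at 1 h. For gibberellin genes the median difference was -0.02 over 16 genes, and its sign turned under quantile and median ratio scaling.

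**Figure D3:**
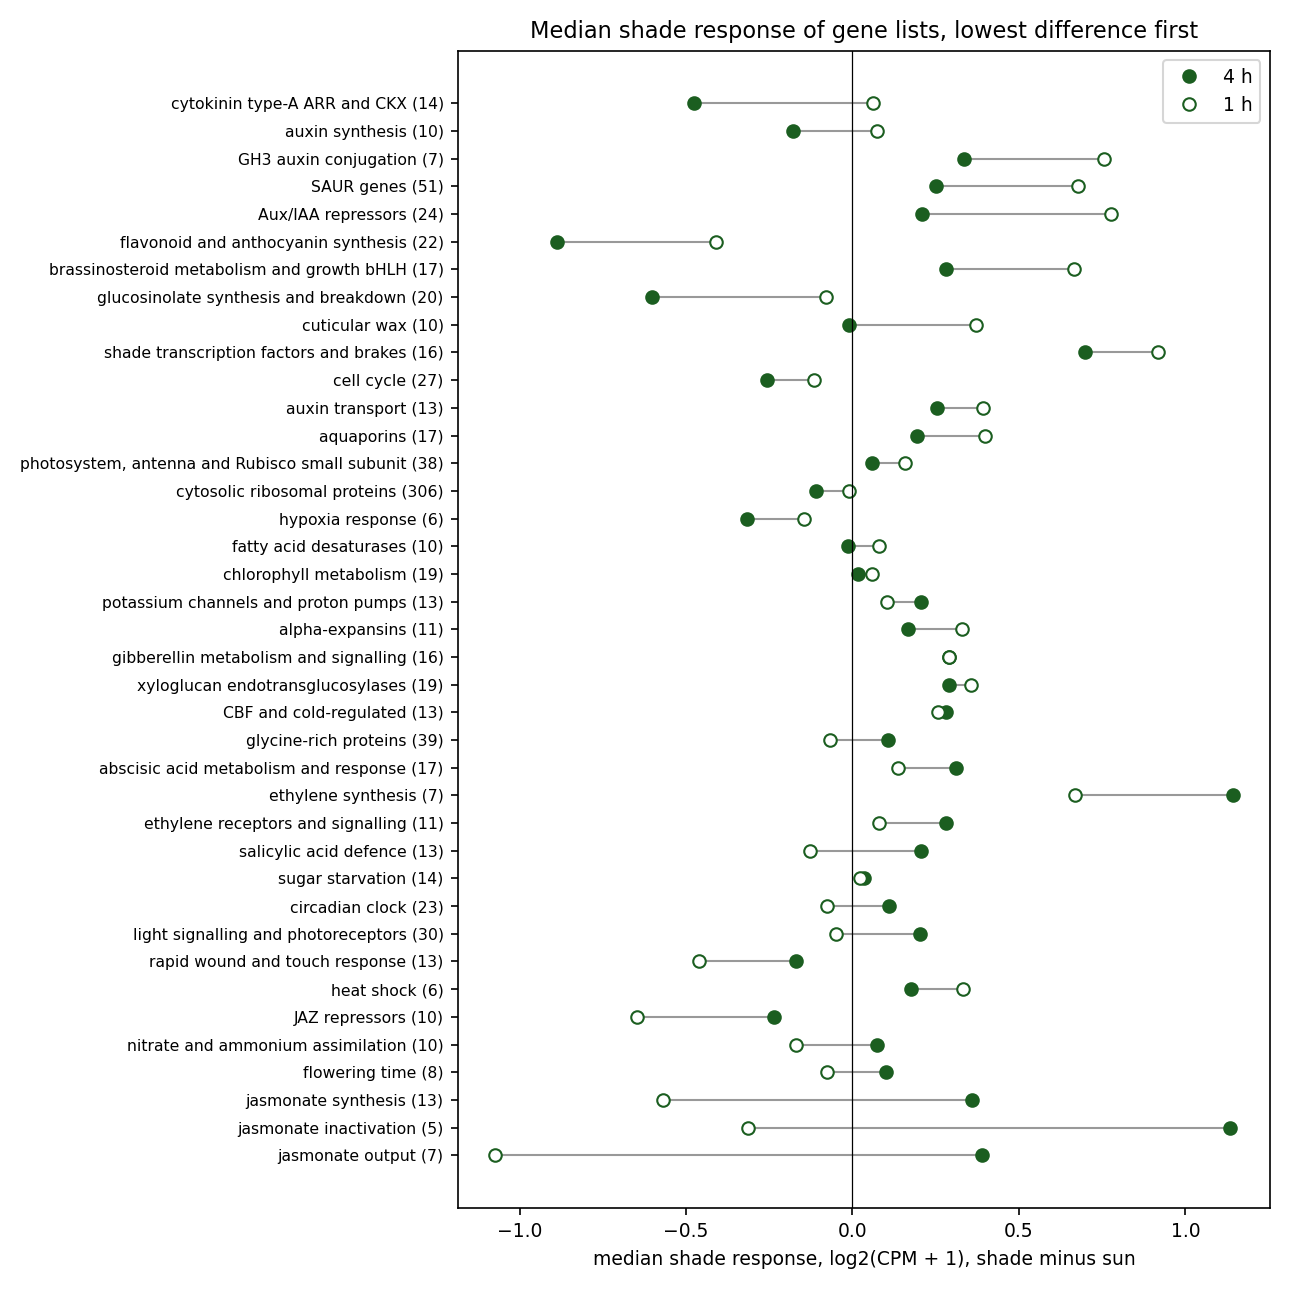
Median shade response of 39 gene lists at 4 h (filled) and 1 h (open), as shade minus sun on the log2(CPM + 1) scale, with the number of tested genes in brackets and the lowest median difference at the top. Auxin, bHLH, cytokinin, flavonoid and glucosinolate lists shift to lower responses at 4 h, and the jasmonate lists shift to higher ones.

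Of the 39 lists with at least 5 tested genes, 21 had a median difference below 0 and 18 above. The sign differed in 10 of them without shade 4 h replicate 1 and in 3 without replicate 2.

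The cytokinin list had a lower median response at 4 h. It held type-A response regulators, which damp cytokinin signalling, and cytokinin oxidases, which degrade the hormone. Over 14 tested of 18 the median response was -0.48 at 4 h and 0.06 at 1 h. The median difference of -0.71 was the most negative of the 39 lists, but it was -0.23 without shade 4 h replicate 1 and -0.97 without replicate 2. No member passed, 6 had a negative difference at an unadjusted p under 0.05 and 1 a positive one, against 3.44% and 2.07% of all tested genes. ARR5 had 5.14 and 4.36 CPM in shade and 12.6 and 11.6 CPM in sun at 4 h, against 8.87 and 11.8 CPM in shade and 11.0 and 8.37 CPM in sun at 1 h. Its groups overlapped at 1 h only, and the difference was -1.28 (adjusted p = 0.806). CKX6, an oxidase, instead lost a higher level in shade, with 17.1 and 17.4 CPM in shade and 20.1 and 21.8 CPM in sun at 4 h against 43.9 and 45.7 CPM in shade and 22.4 and 21.8 CPM in sun at 1 h (difference -1.25, adjusted p = 0.308).

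Flavonoid and glucosinolate genes, both sets of leaf secondary metabolism, had lower median shade responses at 4 h than at 1 h. Over 22 of 24 flavonoid and anthocyanin genes the median response was -0.89 at 4 h and -0.41 at 1 h, and the median difference -0.47. That median was 0.01 without sun 1 h replicate 2 and -0.82 without sun 1 h replicate 1, so the shift depended on the sun libraries at 1 h, and it was -0.29 without sun 4 h replicate 2. Pairwise responses at 4 h lay below those at 1 h in 5 members and above in 2, shares to be read against 10.8% and 7.72% of all genes. CHS, the first enzyme of the pathway, had 59.1 and 67.7 CPM in shade and 122 and 150.1 CPM in sun at 4 h, against 84.4 and 92.0 CPM in shade and 135 and 97.7 CPM in sun at 1 h. Shade was below sun in every library, by 1.08 at 4 h (adjusted p = 0.0384) and by 0.38 at 1 h, and the difference was -0.70 (adjusted p = 0.828). AT5MAT, which adds a malonyl group to anthocyanins, had 1.71 and 1.74 CPM in shade and 9.48 and 16.6 CPM in sun at 4 h, against 5.62 and 4.31 CPM in shade and 12.0 and 3.35 CPM in sun at 1 h. In the late enzyme DFR the 2 sun libraries at 1 h, 30.4 and 6.14 CPM, were further apart than shade and sun.

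Of 20 tested genes of glucosinolate synthesis and breakdown (21 listed), 18 had a negative difference and 2 a positive one, against 54.0% and 46.0% over all tested genes. The median response was -0.60 at 4 h and -0.08 at 1 h, and the median difference was -0.41. It was -0.77 without shade 4 h replicate 1, -0.67 and -0.25 without shade 1 h replicate 1 and replicate 2, and -0.22 without sun 1 h replicate 2. SOT17, a sulfotransferase of the last core step, had 8.56 and 10.8 CPM in shade and 30.4 and 34.7 CPM in sun at 4 h, against 19.3 and 26.7 CPM in shade and 28.9 and 22.6 CPM in sun at 1 h. Shade and sun were separate at 4 h (response -1.66, adjusted p = 0.0182) and overlapped at 1 h, and the difference was -1.49 (SE 0.34, adjusted p = 0.380). CYP79F1, which starts the core of methionine-derived glucosinolates, had 49.7 and 50.0 CPM in shade and 149.5 and 124 CPM in sun at 4 h, against 65.3 and 119 CPM in shade and 136 and 73.7 CPM in sun at 1 h. Its difference was -1.25 with or without either shade 4 h library.

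Among genes with a mean of at least 5 CPM, 44 gained a higher level in shade and 73 a lower one. CIPK20, a protein kinase of calcium signalling, had 10.3 and 12.8 CPM in shade and 3.75 and 2.61 CPM in sun at 4 h, against 52.8 and 49.4 CPM in shade and 54.3 and 63.1 CPM in sun at 1 h. The level fell by 2.06 between the times in shade (adjusted p = 0.00031) and it fell by 3.85 in sun (adjusted p = 1.8e-06). The difference was 1.78 (SE 0.33, adjusted p = 0.137). ADS1, an acyl-lipid desaturase that belonged to none of the classes, had 65.9 and 68.3 CPM in shade and 10.1 and 8.55 CPM in sun at 4 h, against 42.6 and 24.7 CPM in shade and 15.2 and 18.4 CPM in sun at 1 h. Shade was above sun throughout, by 2.72 at 4 h (adjusted p = 0.000935) and by 0.92 at 1 h, and the difference was 1.81 (adjusted p = 0.213).

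PIP2;3, a water channel, had 35.1 and 40.7 CPM in shade and 14.6 and 11.6 CPM in sun at 4 h, against 16.2 and 20.7 CPM in shade and 15.7 and 14.2 CPM in sun at 1 h. Its response was 1.47 at 4 h (adjusted p = 0.0292) and 0.28 at 1 h. Its difference was 1.19, whereas over 17 aquaporins the median difference was -0.15 (-0.09 and -0.30 without shade 4 h replicate 1 and replicate 2, -0.24 without shade 1 h replicate 2) and 13 were negative. TIP2;2, of the vacuolar membrane, lost its response, with 30.0 and 32.3 CPM in shade and 29.8 and 23.0 CPM in sun at 4 h, against 30.1 and 32.5 CPM in shade and 15.2 and 12.6 CPM in sun at 1 h.

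Several of the largest gains came from 1 library. ELI3-2, an alcohol dehydrogenase of the cinnamyl type, had 90.8 and 1.74 CPM in shade and 0.441 and 1.19 CPM in sun at 4 h, and at most 1 read in any 1 h library. The fitted difference of 3.32, which is no bound because of those low values, was 0.79 without shade 4 h replicate 1. AT1G15790, annotated as like a mediator subunit, had 46.2 and 2.91 CPM in shade and 1.76 and 2.14 CPM in sun at 4 h, and its 1 h replicates were as far apart, at 33.5 and 0.575 CPM in shade and 22.2 and 0.558 CPM in sun. COR15A, a cold-regulated chloroplast protein, had 189 and 76.4 CPM in shade and 50.5 and 43.0 CPM in sun at 4 h, and a difference of 1.09 that was 0.44 without shade 4 h replicate 1.

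Of the 174 reversed genes, 53 had a mean of at least 5 CPM. AT2G39725, of a family that helps to build iron-sulfur clusters, had 24.8 and 6.68 CPM in shade and 1.98 and 4.75 CPM in sun at 4 h, against 3.68 and 2.87 CPM in shade and 15.7 and 15.6 CPM in sun at 1 h. The groups did not overlap at either time, and the difference of 3.73 (SE 0.69, adjusted p = 0.137) was 2.86 and 4.61 without shade 4 h replicate 1 and replicate 2. AT4G37180, a homeodomain-like protein, had 12.8 and 9.88 CPM in shade and 4.63 and 4.27 CPM in sun at 4 h, against 7.35 and 6.32 CPM in shade and 12.0 and 13.7 CPM in sun at 1 h (difference 1.99, adjusted p = 0.278). In the other direction, AT3G50800, an uncharacterized protein, had 5.14 and 2.33 CPM in shade and 13.9 and 9.50 CPM in sun at 4 h, against 11.0 and 12.9 CPM in shade and 6.23 and 5.02 CPM in sun at 1 h (difference -2.44, adjusted p = 0.278).

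MYB60, a transcription factor of guard cells, also turned to a lower level in shade, with 7.71 and 9.01 CPM in shade and 14.1 and 16.6 CPM in sun at 4 h, against 12.5 and 13.8 CPM in shade and 8.97 and 8.65 CPM in sun at 1 h. Its difference was -1.34 (adjusted p = 0.708).

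Clock and light-signalling genes had small positive median differences, 0.21 and 0.24. For clock genes it was 0.11 without shade 4 h replicate 2, 0.09 without shade 1 h replicate 2 and 0.33 without sun 1 h replicate 1, and for light signalling 0.14 without shade 4 h replicate 1. Over the 23 clock genes the median response was 0.11 at 4 h and -0.08 at 1 h. The median change between the times was -0.03 in shade libraries and -0.38 in sun libraries for clock genes, and -0.09 and -0.06 for light signalling. Pairwise responses at 4 h lay above those at 1 h in 5 clock genes and below in 1, and in 7 and 1 of the 30 genes of light signalling, against 7.72% and 10.8% of all tested genes. None passed the test of the difference. Between the times, 724 of all tested genes passed in shade libraries (3.76%), of which 375 were higher at 4 h (1.95%) and 349 lower (1.81%). In sun libraries 691 passed (3.58%), with 414 higher (2.15%) and 277 lower (1.44%).

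PRR7, a repressor in the clock, had 104 and 113 CPM in shade and 65.9 and 69.8 CPM in sun at 4 h, against 159 and 174 CPM in shade and 177 and 199 CPM in sun at 1 h. The sun libraries fell by 1.45 (adjusted p = 8.6e-05). The shade libraries fell too, with a change of -0.62 (adjusted p = 0.028), which left a difference of 0.84. LNK1, a co-activator of clock genes, fell by 1.79 in sun (adjusted p = 0.00019) and by 0.78 in shade (adjusted p = 0.035), with a difference of 1.01 (adjusted p = 0.587). GI, which links the clock to flowering, fell by 0.69 in sun (adjusted p = 0.024) and differed by 0.03 in shade.

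PIF4 had 106 and 88.9 CPM in shade and 49.6 and 52.0 CPM in sun at 4 h, against 98.0 and 124 CPM in shade and 87.7 and 101 CPM in sun at 1 h. Shade and sun were apart at 4 h and overlapped at 1 h, and the difference was 0.70 (adjusted p = 0.806). SPA1, which acts with COP1 against light signalling, had a difference of 0.85, again from sun libraries that fell by 0.66 (adjusted p = 0.034). RVE2, a homeodomain-like protein of the clock list, rose between the times in both lights. It rose by 3.87 in shade (adjusted p = 2.2e-05) and 4.27 in sun (adjusted p = 7.5e-06), and its difference of responses was -0.40.

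**Figure D4:**
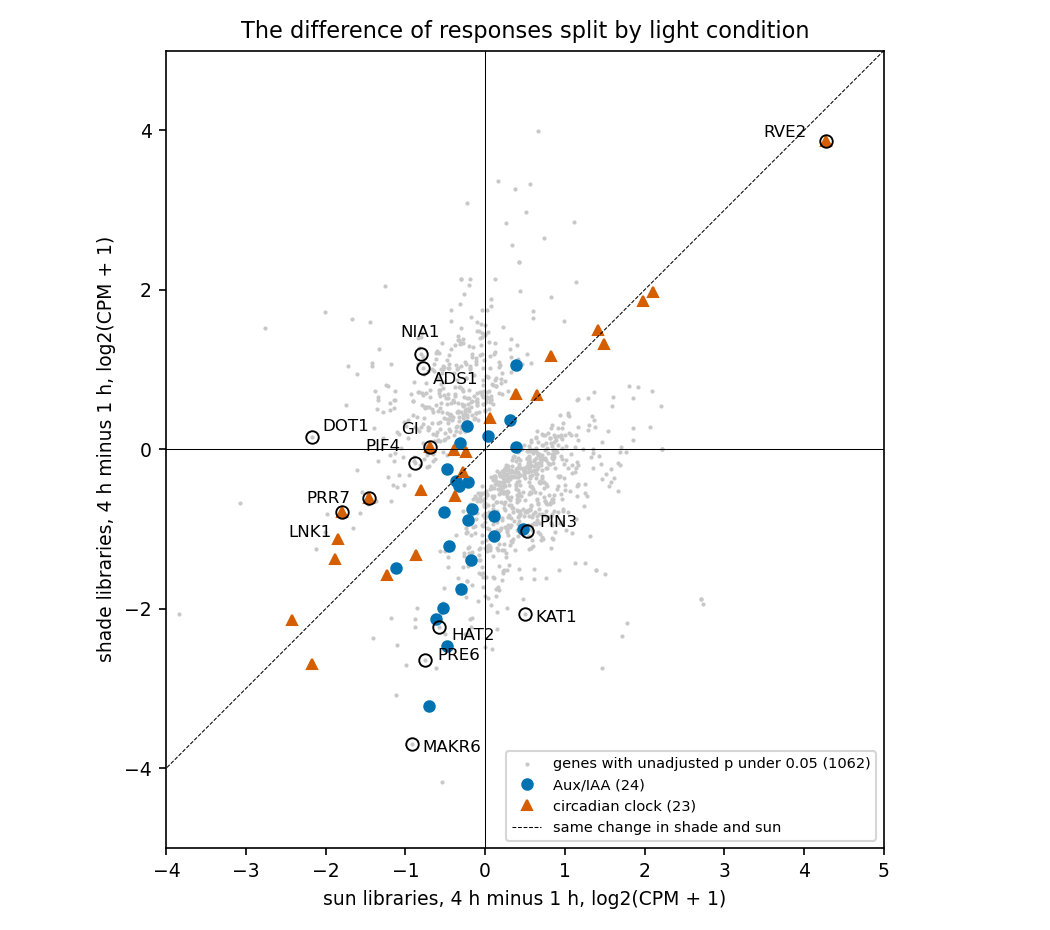
Change between 4 h and 1 h in shade libraries (vertical) against that in sun libraries (horizontal), on the log2(CPM + 1) scale, for the 1062 genes with an unadjusted p under 0.05 (gray), 24 Aux/IAA genes (blue) and 23 clock genes (orange); the dashed line marks equal changes, where the difference of responses is 0. KAT1, HAT2, PRE6 and MAKR6 lie below the line through lower shade libraries at 4 h, and DOT1, LNK1 and PRR7 lie above it through lower sun libraries at 4 h.

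Jasmonate is the hormone of wounding and of defence against herbivores. Its synthesis, inactivation and output lists had the 3 highest median differences of the 39 lists, and their replicates disagreed. The median difference was 0.85 over 13 synthesis genes, 1.42 over 5 of inactivation, 1.66 over 7 output genes and 0.39 over 10 JAZ repressors. Without shade 4 h replicate 1 these medians were 0.02, 0.22, 0.01 and -0.37, and without replicate 2 they were 1.24, 2.17, 3.59 and 1.00. No member passed. The output genes summed to 1284 and 179.9 CPM in shade and 236 and 789.7 CPM in sun at 4 h, and to 128.7 and 168.4 CPM in shade and 696.1 and 178.6 CPM in sun at 1 h. One library of each group except shade at 1 h was high, so shade and sun overlapped at 4 h.

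VSP1, a storage protein induced by jasmonate, had 231 and 3.78 CPM in shade and 7.72 and 73.1 CPM in sun at 4 h, against 6.27 and 1.44 CPM in shade and 97.4 and 6.98 CPM in sun at 1 h. Its difference of 3.12 had an SE of 2.08, and was 0.32 and 5.93 without shade 4 h replicate 1 and replicate 2. LOX3, a lipoxygenase of jasmonate synthesis, had 82.2 and 7.56 CPM in shade and 10.8 and 13.5 CPM in sun at 4 h, against 6.49 and 3.74 CPM in shade and 8.72 and 12.3 CPM in sun at 1 h. NATA1, an acetyltransferase, had 118 and 0.291 CPM in shade and 0 and 7.83 CPM in sun at 4 h, and was listed at 0 in both shade libraries at 1 h. Among 13 rapid wound and touch genes the median difference of 0.29 was -0.46 without shade 4 h replicate 1 and 1.00 without replicate 2.

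ST2A, which sulfates a hydroxylated jasmonate, was the exception in this group, as it kept its response. It had 53.9 and 10.5 CPM in shade and 1.76 and 4.04 CPM in sun at 4 h, against 41.3 and 42.8 CPM in shade and 2.49 and 2.23 CPM in sun at 1 h. Shade was above sun in every library, by 2.75 at 4 h and 3.68 at 1 h (adjusted p = 0.00701). The difference of -0.93 was -2.06 without shade 4 h replicate 1 and 0.20 without replicate 2.

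**Figure D5:**
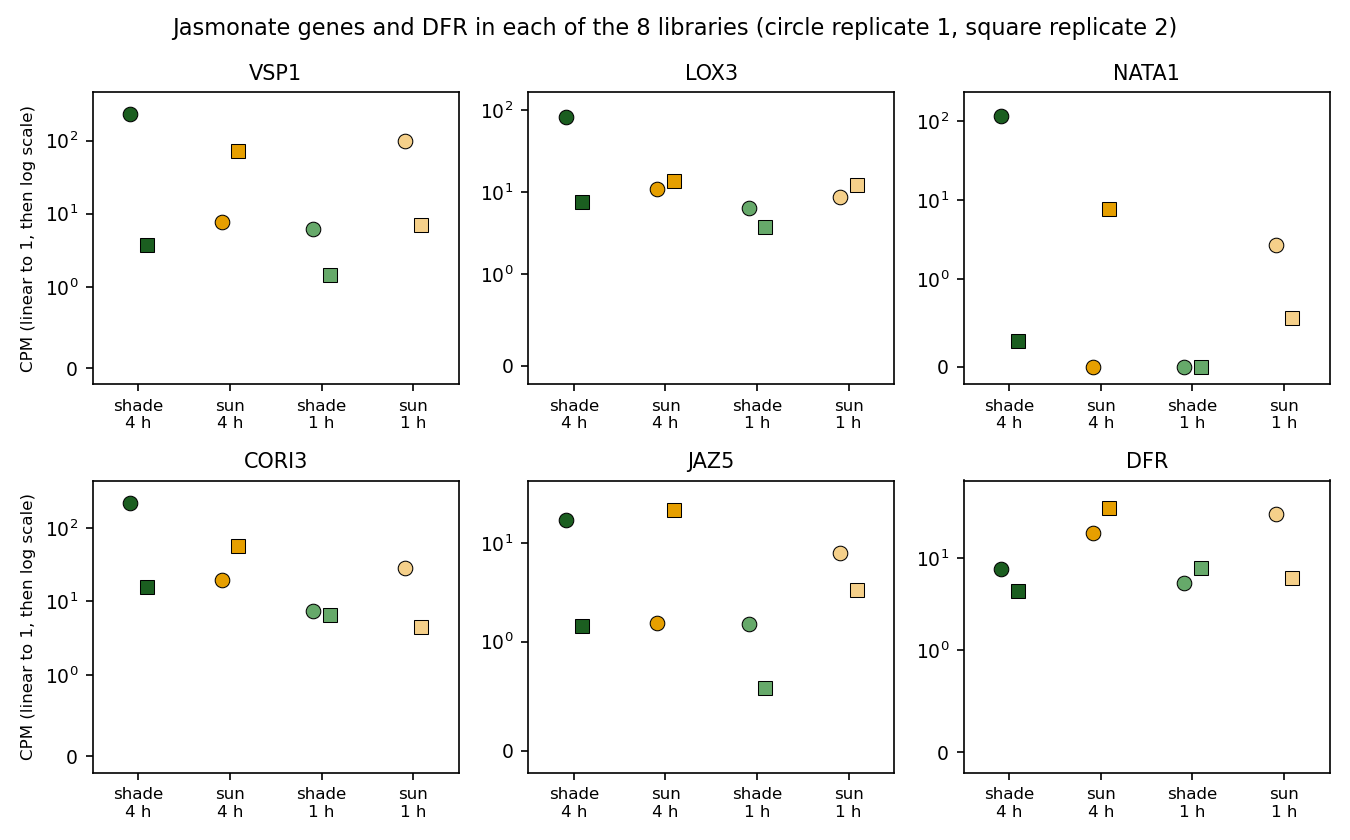
CPM of 5 jasmonate genes and of DFR in the 8 libraries (vertical axis linear to 1 CPM and logarithmic above), with shade and sun at 4 h left of shade and sun at 1 h; circles are replicate 1 and squares replicate 2. VSP1, CORI3 and NATA1 are high in shade 4 h replicate 1, sun 4 h replicate 2 and sun 1 h replicate 1, so replicates differ more than light conditions do.

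Other lists are given by their median differences, beside -0.04 over all tested genes. Cytosolic ribosomal proteins had a median difference of -0.09 over 306 genes, which was 0.12 without shade 4 h replicate 1 and -0.30 without replicate 2. Antenna, photosystem and Rubisco small subunit genes had -0.10 over 38 genes, a sign that turned under quantile normalization, and -0.23 without shade 4 h replicate 2. Alpha-expansins, which loosen cell walls, had -0.04 over 11 genes, or -0.48 without shade 1 h replicate 1. EXPA8 among them had 72.8 and 64.2 CPM in shade and 46.8 and 33.2 CPM in sun at 4 h, against 93.4 and 126 CPM in shade and 31.6 and 39.6 CPM in sun at 1 h, and its response of 0.78 at 4 h stood beside 1.59 at 1 h (adjusted p = 0.00303). Xyloglucan endotransglucosylases had 0.02 over 19 genes, or -0.18 without shade 4 h replicate 1. Cell cycle genes had -0.20 over 27, of which 20 were negative and 7 positive, and the median was -0.002 without shade 4 h replicate 1.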

How the data were processed

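RNA from 8 libraries of leaves and shoot apices was sequenced by the authors, who sorted reads by barcode, removed adaptors and mapped them with TopHat to the TAIR10 genome and its annotation. The deposited table holds 1 CPM value per gene and library, and the submitters' processing notes also name edgeR. Versions, and how overlapping genes, reads with several locations and strand were counted, are not given in the sources used here. All 8 columns were used.

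The deposited CPM steps match whole reads in each library (100% of values within 0.01 read), which gave back the reads per gene. Counting errors treat reads as independent molecules. A gene entered if 2 or more libraries had 1 CPM or above, and log2(CPM + 1) was fitted with limma 3.58.1 in R 4.3.3, with all 4 groups in 1 model (4 residual and 9.33 prior degrees of freedom, mean-variance trend). A fold on this scale understates the change of low genes. The contrasts were the difference of shade responses, the response at each time, and the change between the times in each light, each adjusted by the Benjamini-Hochberg method. The fit was tested on simulated data with known changes of the shade response. It called 11 of 67 genes changed by 1 on the log2 scale (16.4%). Of genes changed by 2 it called 53 of 67 (79.1%), and of genes changed by 3 it called 60 of 66 (90.9%). Among 19080 unchanged genes, 10 were called (0.0524%). Most changes of 1 were thus missed in the simulation. A group with at most 3 reads in each of its libraries was taken as at the floor, and no fold against it is a bound.

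Alternatives were pseudocounts of 0.25 and 5, filters on low values, quantile and median ratio scaling, a replicate block, an adjusted p under 0.001, each library left out, other class limits, and edgeR 4.0.16 and DESeq2 1.42.0 on recovered reads. edgeR called 3 genes and DESeq2 called 15.

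Genes were named when they passed the test, when they had 1 of the 10 largest differences in either direction (mean of at least 5 CPM, unadjusted p under 0.05, pairwise responses not overlapping), when they were among the 5 largest of a class and direction, or when they had 1 of the 4 largest differences of their list. Others (IAA2, IAA5, IAA7, SAUR20, YUC8, ACS8, NIA2, PIL1, KAT2, GORK, CIPK20, CHS, PIF4, RVE2, and the loci of the closing section) were chosen after their values were seen. The members, lists and tests were chosen with earlier results of these data known. Promoters were cut from the RefSeq TAIR10.1 genome, in which 19201 of the tested genes have an entry. In all, 279 plastid and mitochondrial genes were listed at 0 in all libraries and were not analysed here.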

Additional observations from a re-analysis of the deposited data

Results flagged for a closer look

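The shade responses of 2 genes differed between the times by a test of the difference itself. For DOT1 the difference of shade responses, 4 h minus 1 h, was 2.33 on the log2(CPM + 1) scale, with all 4 pairwise responses at 4 h above those at 1 h. For KAT1 it was -2.57, with all 4 pairwise responses at 4 h below those at 1 h. With 2 libraries in each group, no group was large enough to be searched for a single library apart from the rest.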

How the results depend on the processing

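The number of genes called in the difference of responses was 2 with limma, and 15 with DESeq2, 3 with edgeR, 3 with a pseudocount of 5 and 2 with the other filters, pseudocounts and scalings; at an adjusted p under 0.001 it was 0 (1062 genes at an unadjusted p under 0.05). Leaving out 1 library gave between 0 and 200 calls. These were 28 without shade 4 h replicate 1 (4 higher, 24 lower), 200 without replicate 2 (87 higher, 113 lower), and 0 without any other library, where between 563 and 1315 genes had an unadjusted p under 0.05. The single library left in a group is assumed to vary like the other groups. Without a shade 4 h library, the pooled error lacks the widest replicate spread. At an adjusted p under 0.05, KAT1 stayed called in every setting that kept all libraries, with an adjusted p of at most 0.0423, and DOT1 was lost without a filter on low values (adjusted p = 0.148).

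Replicates with the same number showed little shared deviation (correlations between -0.0632 and 0.103), which cannot exclude that they were handled together. The main fit did not pair them. With a replicate block 1 gene was called, KAT1 (adjusted p = 0.0181), and DOT1 was not (adjusted p = 0.0667).

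The class counts depend on limits and on low genes, and lost genes outnumbered gained ones with a pseudocount of 5 and without shade 1 h replicate 1 or either sun 1 h library. Gained genes numbered 147 with a filter of 5 CPM, 49 with a pseudocount of 5, 73 with class limits of 1.5 and 0.5 (1 for reversal) and 117 with a mean of at least 5 CPM, lost genes 107, 55, 37 and 78, and reversed genes 76, 23, 16 and 53. Kept genes numbered 16, 30 and 37 under the last 3 of these. With a pseudocount of 0.25, lost genes numbered 344 and kept genes 150. Leaving out 1 library gave 288 to 1275 gained genes, the most without shade 4 h replicate 2. Gained genes were 288 without shade 1 h replicate 1 and 291 and 307 without sun 1 h replicate 1 and replicate 2. It gave 135 to 526 lost genes, with 526 and 276 without shade 1 h replicate 1 and replicate 2, and 364 and 349 without sun 1 h replicate 1 and replicate 2. Reversed genes ranged from 229 to 407, with 352 without shade 1 h replicate 1, 286 and 407 without shade 4 h replicate 1 and replicate 2, 301 without sun 1 h replicate 1 and 270 without sun 4 h replicate 2. Kept genes ranged from 67 to 104, the most without shade 4 h replicate 2. In a fit with 1 library left out, the rule that shade and sun do not overlap is applied to fewer libraries. The cause of these shifts was not tested.

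The differences of KAT1 and DOT1 kept their sign in every setting. Of the 189 genes that the naming rules select, 5 had a difference that changed sign in a setting that kept all libraries and 36 with 1 library left out, none of them past the threshold. With all libraries kept, 8 of their results passed the threshold that had not, and 2 no longer passed; with 1 library left out these were 47 and 12. At 10 CPM counting error limits shade 4 h replicate 1 to 29.3%.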

Other observations

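Genes called both without shade 4 h replicate 1 and without replicate 2 included KAT1, DOT1, NIA1, MAKR6, HAT2, PIN3, PRE6 and CIPK20. The others were AT1G21060, AT1G67900, AT4G25090, AT2G01240 and the neighbours TET16, TET11 and AT1G18530. Both fits lack the replicate spread of the least alike group and share all other libraries, so a place in both is no check of a gene.

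The loci of TET16, TET11 and AT1G18530 have nearly the same values in every library and count as 1. TET16, a tetraspanin, was at 0 in both shade libraries and at 6.40 and 4.75 CPM in sun at 4 h, against 1.08 and 5.46 CPM in shade and 0 in both sun libraries at 1 h. AT2G01240, with 0 and 0.291 CPM in shade and 2.21 and 2.37 CPM in sun at 4 h, against 4.97 and 4.60 CPM in shade and 0 in both sun libraries at 1 h, had the same order at even lower levels.

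Some loci differed between replicates more than between lights. AT3G01345 had 83.1 and 0.581 CPM in shade and 242 and 164 CPM in sun at 4 h, against 193 and 223 CPM in shade and 303 and 275 CPM in sun at 1 h. MRD1, which overlaps HEI10, had 19.7 and 0.291 CPM in shade and 24.0 and 27.5 CPM in sun at 4 h, against 33.5 and 23.9 CPM in shade and 30.4 and 37.1 CPM in sun at 1 h. For both genes shade 4 h replicate 2 alone was near 0. In all, 111 tested genes with a mean of at least 5 CPM had the same values as another gene in every library, HSF4 and AT4G36988 among them.

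TOC1, a clock repressor that peaks in the evening, rose between the times in both lights, with 239 and 216 CPM in shade and 238 and 223 CPM in sun at 4 h, against 84.1 and 75.6 CPM in shade and 78.5 and 94.1 CPM in sun at 1 h, and its difference of responses was 0.08.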
